A study of Mus musculus with 42 samples.

Results

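Genes whose RNA is characteristic of red blood cells were followed in mouse kidney: the alpha globins Hba-a1 and Hba-a2, the beta globins Hbb-bs and Hbb-bt, and Alas2. The 5 members were chosen by name, with earlier results of these data known. All 5 were found among the 56691 genes of the deposited tables. Total RNA of kidneys of male, genetically wild-type (WT) C57BL/6 mice was sequenced. For 14 weeks the EpSA group was fed high-fat food to which 3% EpSA had been added, and the chow group was fed standard chow. EpSA is not spelled out in the labels. All mice entered the diets at 6 weeks of age, with light and dark phases of 12 h each. Tissue came from ZT 1, 5, 9, 13, 17, 21 and 25, where ZT, zeitgeber time, counts hours from lights on. For each diet and time 3 mice are listed. Each deposited value was read as the authors' mean over those 3 mice, so there are 14 pools, 7 per diet, and the spread between mice is not known. Mice on high-fat food lacking EpSA were not analysed here, and the effects of the fat and of EpSA cannot be told apart in any difference between the diets.

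Haemoglobin is a tetramer of alpha and beta chains, each holding a haem group with iron. Mouse alpha and beta globins are coded in separate clusters, and each adult chain has a pair of nearly identical gene copies. Circulating mouse red blood cells have no nucleus but keep some globin RNA, most of it in reticulocytes, the youngest cells. Alas2 is the erythroid form of 5-aminolevulinate synthase, which catalyses the first step of haem synthesis, and other tissues use Alas1. The kidney carries blood in its vessels and is also the main source of erythropoietin, the hormone that drives red cell production.

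Because the copies of each chain are so alike, their sequences bear on every value given for a single copy. In the GENCODE annotation of GRCm38, Hba-a1 lies on the plus strand at chr11:32283511-32284465 and Hba-a2 at chr11:32296489-32297298. Hbb-bs lies on the minus strand at chr7:103826534-103828096 and Hbb-bt at chr7:103812524-103813996. Alas2 lies on the plus strand of chrX:150547375-150570638. Which build the authors used is not given in the sources used here. Coding sequences of the alpha copies are 429 bases long and differ at 1 base, C381T, where Hba-a1 is given first and positions count from the A of the start codon. The beta copies, 444 bases long, also differ at 1 base, C417T, with Hbb-bs first. The codon changes from GAC to GAT in the alpha pair and from GCC to GCT in the beta pair, and both are synonymous. The stretches around those bases follow, with the differing base in capitals, from exonic coding sequence at chr11:32284313-32284373, chr11:32297130-32297190, chr7:103826665-103826722 and chr7:103812656-103812713.
Hba-a1: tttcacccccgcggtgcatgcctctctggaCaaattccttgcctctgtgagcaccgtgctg
Hba-a2: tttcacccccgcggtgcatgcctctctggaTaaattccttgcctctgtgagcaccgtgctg
Hbb-bs: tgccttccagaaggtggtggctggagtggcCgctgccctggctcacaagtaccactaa
Hbb-bt: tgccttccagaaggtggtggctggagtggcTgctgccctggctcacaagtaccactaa

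Reads were 150 bases at each end. Of all windows of 150 bases, 48.4% of those in the Hba-a1 transcript also occur in Hba-a2, and 65.7% of those in Hba-a2 occur in Hba-a1. In the beta pair, 58.7% of the Hbb-bs windows occur in Hbb-bt and 50.7% of the Hbb-bt windows occur in Hbb-bs. How the authors assigned reads that match both copies is not given in the sources used here. Single copies are therefore uncertain, and the sum of each pair is given beside them.

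The promoters are shown as background, and their part in the levels of the members was not tested. The RefSeq promoter windows of Hba-a1 and Hba-a2 (GRCm38.p6) are identical over 297 bases when shifted by 3, so Hba-a1 stands for both. Each line gives the 110 bases before the RefSeq start on the gene's strand, at chr11:32283562-32283671, chr7:103827929-103828038, chr7:103813924-103814033 and chrX:150547307-150547416. GENCODE starts several of these genes upstream of RefSeq: the Hba-a1 and Hbb-bs windows lie inside the GENCODE gene intervals given here, and the Hbb-bt and Alas2 windows overlap theirs in part. Capitals mark matches, on either strand, to the 4 short motifs counted after the sequences.
Hba-a1: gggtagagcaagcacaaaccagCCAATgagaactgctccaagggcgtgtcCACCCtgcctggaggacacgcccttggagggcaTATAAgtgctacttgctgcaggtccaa
Hbb-bs: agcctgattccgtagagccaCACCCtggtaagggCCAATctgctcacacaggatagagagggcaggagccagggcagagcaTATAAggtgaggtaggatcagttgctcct
Hbb-bt: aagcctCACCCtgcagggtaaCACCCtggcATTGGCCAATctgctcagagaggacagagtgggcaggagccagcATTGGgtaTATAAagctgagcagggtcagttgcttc
Alas2: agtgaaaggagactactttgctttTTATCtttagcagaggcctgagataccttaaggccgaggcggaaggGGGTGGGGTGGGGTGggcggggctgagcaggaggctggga

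CACCC, which Krüppel-like factors such as Klf1 bind, was found on either strand in the windows of all 5 members and in 29.6% of the 32851 RefSeq windows of this length. CCAAT was found in the windows of the 4 globins, against 20.2% of all windows, and in Hbb-bt it occurs 3 times, with a pair on opposite strands lying end to end. The 4 globin windows also hold TATAA, the core of a TATA box, against 10.9% of all windows. Among the members, GATAA, the core of GATA factor sites, was found in the Alas2 window alone, against 9.4% of all windows. These matches describe the letters in the windows and were not tested as sites.

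Adult globin RNA was abundant in every pool. Values are taken as FPKM, a fragment count scaled to transcript length and library size, a unit the headers do not name. Averaged over the 14 pools, Hbb-bs ranked 110 of 56691 genes at 279 FPKM, Hba-a1 470 at 92.4, Hbb-bt 1015 at 43.3, Hba-a2 1653 at 27.2 and Alas2 8762 at 3.47. Each stood above the next in 14 of 14 pools, except that Hbb-bt exceeded Hba-a2 in 13. The exception was chow at ZT 21, where Hba-a2 reached 65.3 FPKM and Hbb-bt 54.0. The 4 globins together made up 0.0884% ± 0.0107 of all FPKM in EpSA kidneys and 0.126% ± 0.0277 in chow kidneys (SD over 7 times).

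Genes of the same clusters that are used in the embryo were nearly absent. Of 9 other genes of the alpha and beta clusters, 6 were listed at 0 in all pools, among them Hba-x, the embryonic zeta chain, and Hbb-bh1. Hbb-y, the embryonic epsilon chain, was above 0 only in EpSA at ZT 5, with 0.04 FPKM. Hbq1a, a theta globin, averaged 0.0896 FPKM in EpSA and 0.0167 in chow pools. Cygb, cytoglobin, a globin of fibroblasts that does not belong to red cells, averaged 4.25 ± 0.60 FPKM in EpSA and 4.22 ± 0.63 in chow pools.

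Other RNAs that mark red cells or their precursors were low. Of 16 such genes in the table, 2 had a mean of at least 1 FPKM, the limit for testing. Slc4a1, the anion exchanger band 3, which kidney intercalated cells also make, averaged 8.78 ± 1.55 FPKM in EpSA and 9.63 ± 1.18 in chow pools. The summed level of the 16 ran between 8.79 and 13.7 FPKM in EpSA pools and between 10.3 and 13.4 in chow pools. It averaged 11.1 FPKM in EpSA and 12.1 in chow pools, most of it Slc4a1. Both the sum and Slc4a1 were lower in EpSA at 4 of 7 times. Gata1, the factor that directs erythroid genes, averaged 0.00471 FPKM in EpSA and 0.00386 in chow pools, and was listed at 0 in some pools of each diet. Klf1, which activates adult beta globin, averaged 1.35 ± 0.32 FPKM in EpSA and 1.41 ± 0.38 in chow pools.

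Kidney markers were high. Kap, an androgen-dependent proximal tubule gene, averaged 35247 FPKM in EpSA and 42235 in chow pools. Umod, uromodulin of the thick ascending limb, averaged 634 FPKM in EpSA and 827 in chow pools. Slc34a1, the proximal tubule phosphate carrier, averaged 891 FPKM in EpSA and 889 in chow pools. Slc12a1 averaged 140 FPKM in EpSA and 176 in chow pools. Diet differences of Umod and Slc12a1 in log2(FPKM + 1) were -0.39 ± 0.11 and -0.32 ± 0.07 (SE, limma adjusted p = 0.118 and 0.0815). Umod was lower in EpSA at 6 of 7 times and Slc12a1 at 7 of 7. Of the 8 kidney markers, 5 had diet differences below 0 and 3 above, and none was called. Some pools stood apart in genes of other tissues. Summed macrophage markers reached 930 FPKM in a chow pool at ZT 13, with 180 to 235 FPKM in EpSA pools. Cd74 alone gave 796 FPKM of that chow sum, and the other macrophage markers were highest in chow at ZT 1 or ZT 5. Summed adrenal markers reached 109.5 FPKM in EpSA at ZT 9. Summed fat tissue markers ran between 36.2 and 242 FPKM in EpSA and between 70.1 and 198 FPKM in chow pools, highest at ZT 5 in both. Of these 7 fat genes, 5 had diet differences below 0, with a median of -0.26 in log2(FPKM + 1), and their part in the globin difference was not tested. Chow at ZT 21 also stood apart. It had the highest FPKM sum of all pools, 435621, and the fewest genes above 0, 27796. Kap reached 62960.5 FPKM in it, Fth1, a ferritin chain, 1598 and Gpx1, a glutathione peroxidase, 594, the highest chow level of each. Their chow means were 42235, 1254 and 448 FPKM. Other kidney markers had their highest chow levels at other times. The part of this makeup in the globin values of that pool was not tested. Depth is unknown, since the tables hold no counts.

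All 4 globins had lower levels in EpSA than in chow kidneys at each of the 7 times, and none of the 5 members passed the test over all genes. The comparison asks how the kidney of mice on the EpSA diet differs from that of mice on chow. Summed over the 4 genes, globin RNA averaged 367 ± 46.7 FPKM in EpSA and 517 ± 109 FPKM in chow pools (SD over 7 times), 29.1% lower in EpSA. Fewer cells of a type and less RNA per cell cannot be told apart in such bulk samples.

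**Figure D1:**
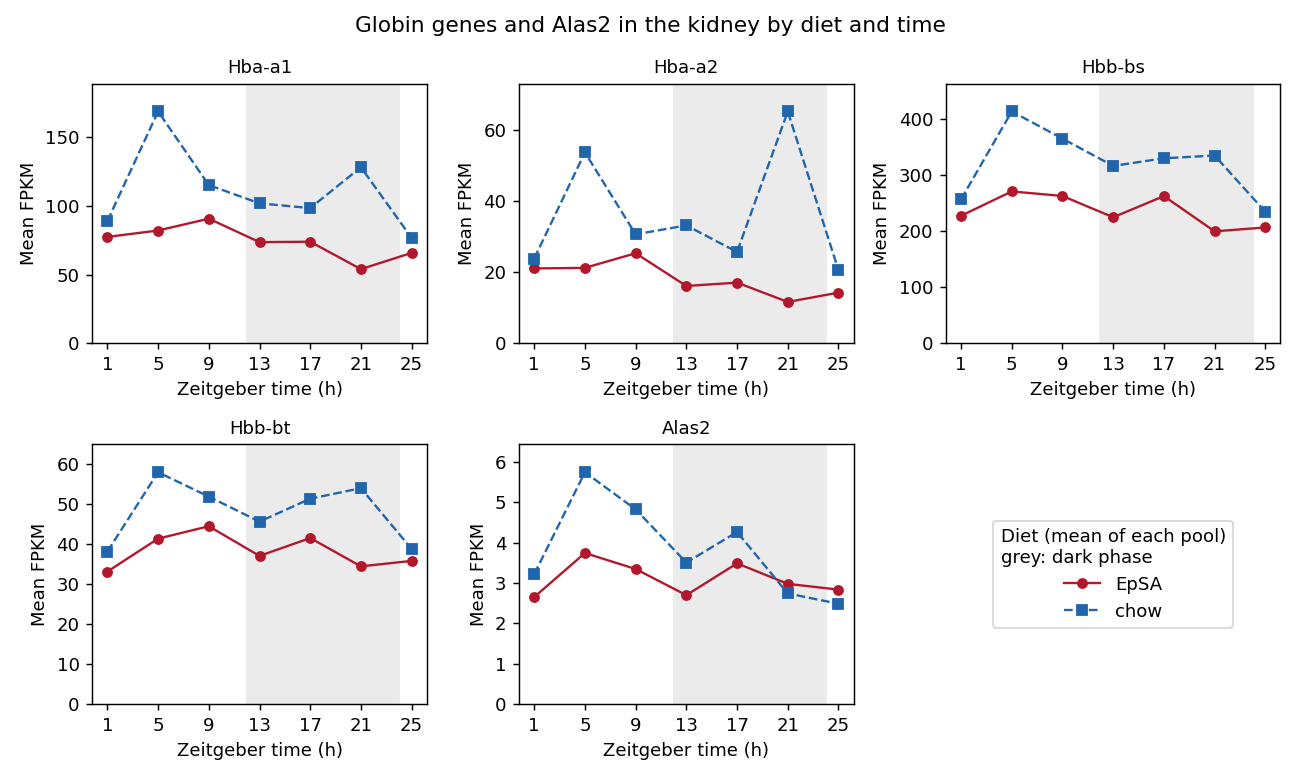
Mean FPKM of each member (y axis) at each zeitgeber time in hours (x axis), 1 point per pool, with EpSA as red circles and chow as blue squares, and the dark phase in grey. The EpSA points of the 4 globins lie below the chow points at all 7 times, while Alas2 in EpSA is above chow at ZT 21 and ZT 25.

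Hbb-bs, the main beta globin copy, was the highest member. In EpSA pools it was 228, 271, 263, 225, 263, 199.9 and 207 FPKM at ZT 1, 5, 9, 13, 17, 21 and 25, and in chow pools it was 257, 413, 365, 316, 330.0, 335 and 235 FPKM at those times. No globin separated the groups fully, which 0.465% of tested genes did with lower EpSA levels: for Hbb-bs, as for the other 3 globins, 5 of 7 chow pools exceeded the highest EpSA pool, and 4 of 7 EpSA pools were below the lowest chow pool. On the log2(FPKM + 1) scale, which understates the change of low genes, the difference was -0.43 ± 0.07 (SE). By limma with Benjamini-Hochberg adjustment over 13344 genes the adjusted p was 0.0577, rank 50 by p, just above the threshold of 0.05. It was below that threshold (0.0429 and 0.0491) with genes of a mean of at least 5 FPKM or with quantile normalization.

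Hbb-bt, the minor beta copy, had a lowest, median and highest level of 33.2, 37.1 and 44.5 FPKM in EpSA pools and 38.2, 51.4 and 58.0 FPKM in chow pools. Its difference was -0.32 ± 0.06 in log2(FPKM + 1), with a limma adjusted p of 0.0654. With both beta copies summed, levels averaged 275 ± 32.6 FPKM in EpSA and 370 ± 68.2 in chow pools, 25.7% lower in EpSA (limma adjusted p = 0.0577).

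Hba-a1, the more abundant alpha copy, had a lowest, median and highest level of 53.9, 73.8 and 90.6 FPKM in EpSA pools and 76.6, 102 and 168 FPKM in chow pools. The limma difference was -0.55 ± 0.13 in log2(FPKM + 1), with an adjusted p of 0.0863.

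Hba-a2, the less abundant alpha copy, had the widest gap between the diets. Its levels were 21.1, 21.3, 25.4, 16.2, 17.1, 11.7 and 14.3 FPKM in EpSA pools and 23.9, 53.8, 30.7, 33.2, 25.8, 65.3 and 20.7 FPKM in chow pools, in the same order of times. The lowest EpSA pool and the highest chow pool both fell at ZT 21. The gap was smallest at ZT 1, 11.7% lower in EpSA. The difference was -0.88 ± 0.24 in log2(FPKM + 1), with a limma adjusted p of 0.125, and it was -0.63 without ZT 21. With both alpha copies summed, levels averaged 92.0 ± 16.3 FPKM in EpSA and 147 ± 44.9 in chow pools, 37.5% lower in EpSA (limma adjusted p = 0.0981).

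For Alas2 the direction was not the same in the pools of all 7 times. In EpSA pools it was 2.65, 3.74, 3.35, 2.70, 3.49, 2.98 and 2.84 FPKM, and in chow pools it was 3.22, 5.74, 4.82, 3.51, 4.26, 2.74 and 2.49 FPKM, from ZT 1 to ZT 25. EpSA was below chow at 5 of 7 times and above it at ZT 21 and ZT 25. No EpSA pool lay below the lowest chow pool. The limma difference was -0.20 ± 0.08 in log2(FPKM + 1), with an adjusted p of 0.219.

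Each globin was lower in EpSA at 7 of 7 times, for which the exact two-sided sign-flip test over times gave p = 0.0156 for each, the smallest p that 7 times allow. For Alas2 the exact sign-flip test gave p = 0.0781. Of all genes tested, 4.13% were lower in EpSA at all 7 times. None of the 5 members was called, against 0.0749% of tested genes called lower in EpSA and 0.247% called in either direction. At an unadjusted limma p under 0.05 all 5 were lower, against 10.6% of tested genes. For Alas2 that limma p was 0.0311, and it was 0.135 with no time factor. It was between 0.0535 and 0.0916 without ZT 1, 5, 9, 13 or 17. The copies of each chain can share reads, so the members are not separate observations. The median difference was -0.43 in log2(FPKM + 1) over the 5 members and -0.01 over all genes tested.

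**Figure D2:**
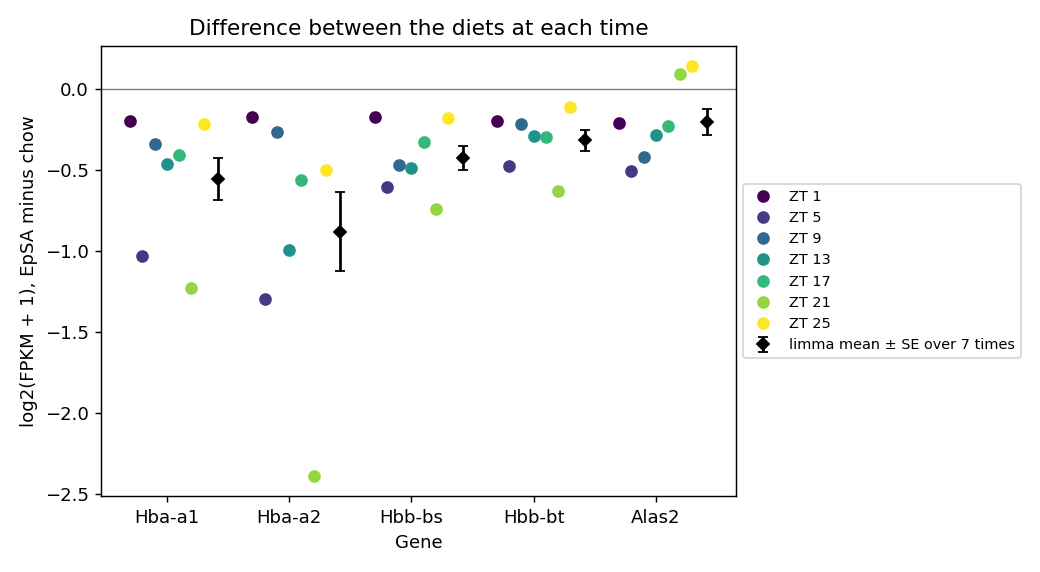
Difference in log2(FPKM + 1), EpSA minus chow (y axis), for each member (x axis), with 1 coloured point per zeitgeber time and a black diamond for the limma estimate ± SE over 7 times. The 4 globins lie below 0 at all 7 times, with the ZT 21 points lowest, and Alas2 lies above 0 at ZT 21 and ZT 25.

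The size of the gap differed between the times, each with 1 pool per diet and no known spread between mice. Summed globin RNA was 11.9% lower in EpSA at ZT 1 and 13.0% lower at ZT 25, which is the same clock hour a day later. It was 40.1% lower at ZT 5 and 48.5% lower at ZT 21. The remaining times, ZT 9, 13 and 17, gave 24.8%, 29.2% and 21.8%. The lowest 2 chow pools were those of ZT 25 and ZT 1, with 371 and 408 FPKM, and the highest was ZT 5 with 694 FPKM. EpSA pools ran between 299.95 FPKM at ZT 21 and 423 FPKM at ZT 9. The ZT 25 pool had 0.898 times the summed level of the ZT 1 pool in EpSA and 0.909 times in chow. Among members that ratio ran between 0.678 for Hba-a2 and 1.08 for Hbb-bt in EpSA, and between 0.772 for Alas2 and 1.02 for Hbb-bt in chow.

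A daily rhythm of the members was not called in either diet. A cosine of 24 h fitted with limma to log2(FPKM + 1) gave Hba-a1 an amplitude of 0.27 ± 0.08 in EpSA, with its peak at 8.38 h and an adjusted p of 0.543. Hba-a2 had an amplitude of 0.40 ± 0.12 in EpSA, with an adjusted p of 0.574. These 2 members had an unadjusted p under 0.05 in EpSA (0.0237 and 0.0438), as did 8.63% of tested genes, while 0.045% of tested genes passed adjustment. Both p-values exceeded 0.05 with no filter (0.065 and 0.107), without ZT 9 (0.124 and 0.203) and without ZT 21 (0.14 and 0.203), and the Hba-a1 amplitude was 0.18 without ZT 21. The Hba-a2 p-value also did so without ZT 5 (0.0949) and with columns scaled to 1 total (0.0548). In chow, no member had an unadjusted p under 0.05, against 10.2% of tested genes, and 0.0974% of tested genes passed adjustment. Alas2 came closest in chow, with an amplitude of 0.34 ± 0.13, a peak at 9.07 h and a limma adjusted p of 0.554. The test of a difference of rhythm between the diets gave adjusted p-values between 0.828 and 0.98 for the members, and it called 0 genes in all, with 4.38% of tested genes at an unadjusted p under 0.05. In the authors' deposited table the meta2d q-value was 1 for each member in both diets, and the lowest meta2d p-value was 0.0914, for Hba-a1 in EpSA.

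The balance between members was also compared, as ratios within a pool, which cancel the total amount of globin RNA. Hba-a2 over Hba-a1 was 0.243 ± 0.0276 in EpSA and 0.318 ± 0.0891 in chow pools (SD over 7 times). It was lower in EpSA at 5 of 7 times (exact two-sided sign-flip p = 0.0625). The highest ratio, 0.511, was that of chow at ZT 21, and the next chow pool had 0.327. Without ZT 21 the mean log2 difference of this ratio was -0.21, against -0.36 with it. A ratio of near-identical copies also moves with how shared reads are assigned, and that part was not tested.

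Hbb-bt over Hbb-bs was 0.162 ± 0.0105 in EpSA and 0.151 ± 0.0098 in chow pools and was higher in EpSA at 6 of 7 times. The exact two-sided sign-flip test gave p = 0.0469, and between 0.0312 and 0.0938 with 1 time left out, where 0.0312 is the smallest possible. Adjusted over the 4 ratios between members by Benjamini-Hochberg it was 0.0833, and so were the other 2 ratios of globins.

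Alpha globin summed over beta globin summed was 0.334 ± 0.0365 in EpSA and 0.393 ± 0.065 in chow pools, lower in EpSA at 6 of 7 times (exact two-sided sign-flip p = 0.0625). The chow pools of ZT 5 and ZT 21 had the highest ratios, 0.471 and 0.497, and EpSA at ZT 21 had the lowest, 0.280. Without ZT 21 the mean log2 difference was -0.13, against -0.23 with it. Alas2 per 100 FPKM of globins was 0.850 ± 0.0892 in EpSA and 0.738 ± 0.137 in chow pools (exact two-sided sign-flip p = 0.172, also after adjustment). At ZT 21 it was 0.993 in EpSA and 0.471 in chow, the highest and lowest of the 14 pools, and without that time the mean log2 difference was 0.08, against 0.22 with it.

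**Figure D3:**
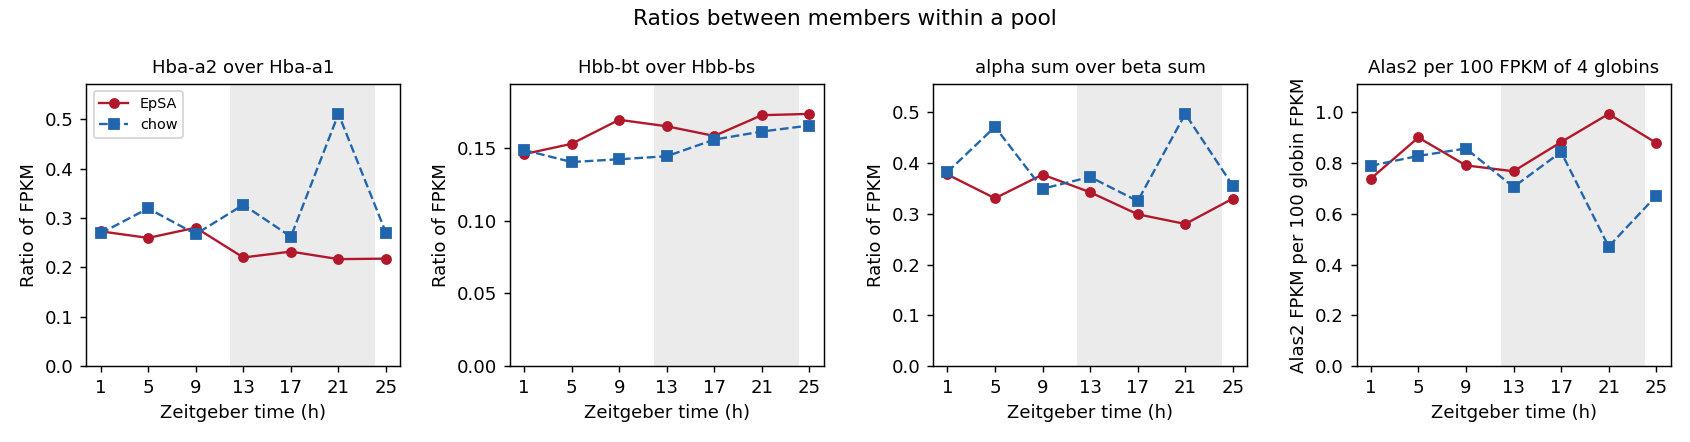
Ratios of FPKM within each pool, and Alas2 FPKM per 100 FPKM of globins (y axes), by zeitgeber time in hours (x axes), with EpSA as red circles and chow as blue squares, and the dark phase in grey. The chow pool of ZT 21 has the highest Hba-a2 over Hba-a1 ratio, 0.511, and the lowest Alas2 per 100 FPKM of globins, 0.471.

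Over the 14 pools, Pearson's r of log2(FPKM + 1) between pairs of globins ran between 0.85 and 0.96, as a description over points that share pools, diets and, for each pair of copies, reads. Alas2 had r between 0.44 with Hba-a2 and 0.80 with Hbb-bs. These values include the gap between the diets that the globins share. Within the 7 EpSA pools pairs of globins had r between 0.58 and 0.97, and Alas2 had 0.82 with Hbb-bt, 0.78 with Hbb-bs, 0.39 with Hba-a1 and 0.37 with Hba-a2. Within the 7 chow pools pairs of globins had r between 0.71 and 0.95, and Alas2 had between 0.24 with Hba-a2 and 0.82 with Hbb-bs. Of 13339 other tested genes, those most like the globin sum were Dnpep (an aspartyl aminopeptidase), Coq8b (coenzyme Q synthesis) and Pigt (a subunit of the enzyme that attaches lipid anchors to proteins), each with r = 0.90. Pelp1 with 0.87, Bckdk (a kinase of branched-chain amino acid breakdown) with 0.86, Ctsz (a lysosomal cathepsin) with 0.86, Anxa11 (an annexin) with 0.85 and Sap18 with 0.85 followed. Over the 7 pools of a diet, r of these 8 genes ran between 0.47 and 0.95 in EpSA and between 0.71 and 0.88 in chow. None of these 8 is on the red cell lists used here. Hbb-bt, a member of the sum, had r = 0.96 with it, and Alas2 had 0.73. The most opposite were Sclt1 (a centriole protein) and Rbm3 (a cold-induced RNA-binding protein), each with r = -0.89, and Safb with -0.88, a model gene with no name of its own being passed over.

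No gene was called in any of the lists of related genes, against 0.247% of all tested genes called in either direction. Of 26 tested genes that red cell membrane and cytoplasm share with other cells, 19 had estimates below 0 and 7 above, with a median difference of -0.06, against 53.9% of all tested genes below 0. The 4 most abundant were Gpx1, a glutathione peroxidase, with -0.18 ± 0.09, Cat, catalase, with 0.01 ± 0.05, Aqp1, a water channel of red cells and proximal tubule, with -0.12 ± 0.07, and Bsg, basigin, with -0.07 ± 0.05. Mkrn1, Cd47 and Slc2a1 were lower in EpSA at 7 of 7 times, with limma adjusted p of 0.0673, 0.111 and 0.117. Slc25a37, Pklr and Car2 went the other way, with 0.23 ± 0.05, 0.27 ± 0.11 and 0.17 ± 0.06. Their limma adjusted p was 0.0855, 0.238 and 0.189, and EpSA was lower at 1, 2 and 1 of 7 times. These genes of both directions were picked after their values were seen.

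Haem synthesis, without Alas2, had 13 tested genes, 7 below 0 and 6 above, with a median of -0.05. Slc25a39, a mitochondrial glutathione carrier, averaged 131 ± 7.26 FPKM in EpSA and 154 ± 13.1 in chow pools (limma adjusted p = 0.121). Alas1, the form of the enzyme used outside red cells, averaged 26.6 ± 9.89 FPKM in EpSA and 23.5 ± 5.12 in chow pools (limma adjusted p = 0.692). Alad and Urod, further enzymes of the pathway, had differences of -0.10 ± 0.09 and -0.11 ± 0.04.

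Erythroid transcription factors had 5 tested genes of 10, 3 below 0 and 2 above, with a median of -0.02. Genes of erythropoietin and oxygen sensing had 12 tested of 15, with 7 below 0 and 5 above, and a median of -0.04. The medians of both lists ranged over 0 when 1 time was left out, between -0.03 and 0.03 for the factors and between -0.07 and 0.03 for oxygen sensing. Epo itself averaged 0.048 FPKM in EpSA and 0.0499 in chow pools, under the limit for testing. Vegfa, a growth factor of vessels that hypoxia induces, averaged 92.5 ± 9.18 FPKM in EpSA and 74.3 ± 6.17 in chow pools. It was higher in EpSA at 7 of 7 times, as were 3.81% of tested genes, with a difference of 0.31 ± 0.05 and a limma adjusted p of 0.0577. The other most abundant genes of the list were Ndrg1, a gene that hypoxia induces, with -0.05 ± 0.11, Epas1, a hypoxia-inducible factor, with 0.06 ± 0.06, and Egln1, an oxygen-dependent prolyl hydroxylase, with -0.10 ± 0.04. Egln2, a further prolyl hydroxylase picked after its values were seen, was lower in EpSA at 7 of 7 times, with -0.19 ± 0.05 (limma adjusted p = 0.11).

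Uptake and breakdown of haemoglobin and haem had 11 tested genes, 9 below 0 and 2 above, with a median of -0.06. Lrp2, megalin, which takes up filtered haemoglobin in the proximal tubule, had a difference of -0.03 ± 0.06. Iron handling had 15 tested genes, 11 below 0 and 4 above, with a median of -0.03. Its most abundant genes, the ferritin chains Fth1 and Ftl1, had differences of -0.02 ± 0.07 and -0.15 ± 0.06.

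Markers of other cells that lie in or around blood vessels were set beside the globin difference. Of 15 endothelial genes, 6 were below 0 and 9 above, with a median of 0.03. That median was -0.01 without ZT 17, ZT 21 or ZT 25 and 0.09 without ZT 1. Endothelial sums were 159 to 206 FPKM in EpSA and 166 to 229 in chow pools, lower in EpSA at 4 of 7 times. Of 10 platelet genes 2 could be tested, both below 0, and their sums were 3.27 to 4.26 FPKM in EpSA and 3.62 to 5.44 in chow pools, lower in EpSA at 6 of 7 times. Itga2b, the platelet integrin alpha chain, had a difference of -0.04 ± 0.06 (limma adjusted p = 0.739), and Pf4, platelet factor 4, one of -0.26 ± 0.09 (limma adjusted p = 0.164). Of 10 neutrophil genes 1 could be tested, below 0. The neutrophil sums were 1.71 to 3.39 FPKM in EpSA and 2.11 to 4.85 in chow pools, lower in EpSA at 6 of 7 times. Of 11 lymphocyte genes 3 could be tested, all below 0. The lymphocyte sums were 4.94 to 8.39 FPKM in EpSA and 4.78 to 11.1 in chow pools, lower in EpSA at 6 of 7 times. All 10 macrophage genes were below 0, with a median of -0.39. That median was -0.25 without ZT 1 and between -0.49 and -0.34 without another time. Macrophage sums were 180 to 235 FPKM in EpSA and 178 to 930 in chow pools, lower in EpSA at 5 of 7 times. Of the 930 FPKM, Cd74 alone gave 796. How much blood or how many cells of each type a pool held was not measured, and the part of these cells in the globin difference was not tested.

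**Figure D4:**
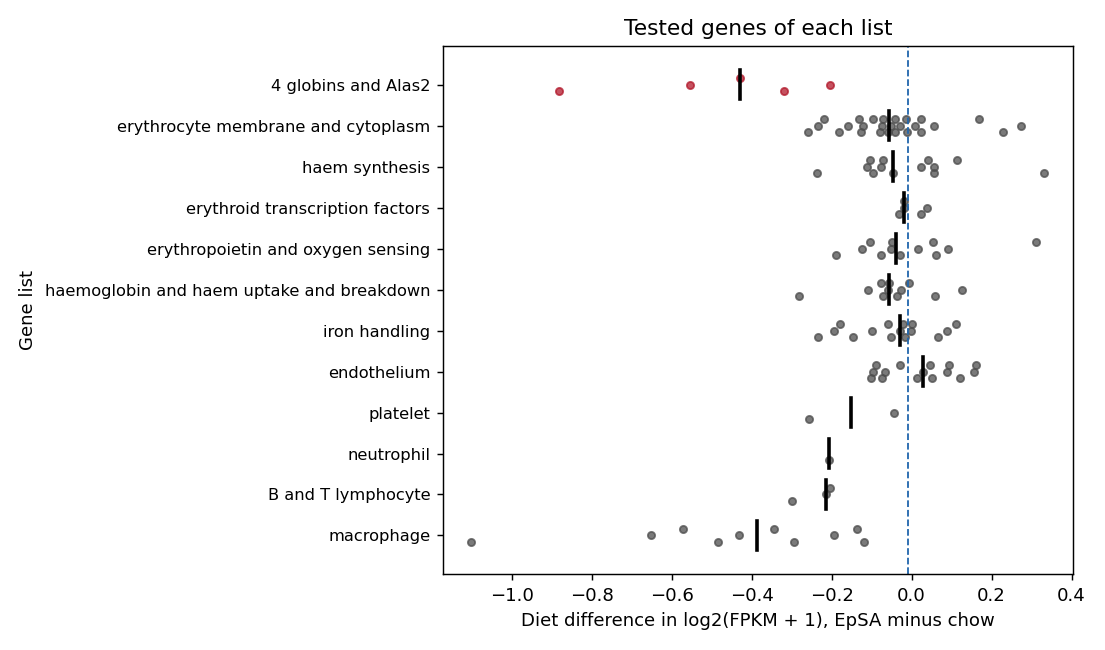
Difference in log2(FPKM + 1), EpSA minus chow (x axis), of each tested gene of the lists (y axis), with 1 point per gene, a black bar at each list's median and a dashed line at the median of all tested genes. The globins and Alas2 have a median of -0.43, endothelial genes one of 0.03 and macrophage genes one of -0.39.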

How the data were processed

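Paired-end reads came from total kidney RNA, per the labels' protocols; aligner, counting tool, build and annotation are not given in the sources used here. Each diet has 1 table, deposited by the authors, of 56691 genes. Their expression columns are deposited without a named unit and were read as FPKM; in all of them the last decimal is 0, 3 or 7, as in means of 3 values, so a column was read as the authors' mean over 3 mice. Headers of the columns read as EpSA say LEOA instead, and these columns were matched to EpSA through the labels of the samples. The rhythm p-values and q-values that the authors deposited come from ARS, JTK, LS and meta2d, per the file headers, beside a deposited amplitude-to-baseline ratio.

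The 13344 genes averaging 1 FPKM or more entered limma 3.58.1 (R 4.3.3) as log2(FPKM + 1), pseudocount 1, with trended and robust variances and Benjamini-Hochberg adjustment at 0.05. The diet fit had time as a factor; rhythm was a cosine and sine of 24 h in each diet, and their interaction with diet tested the difference. Each pool is 1 sample, so errors are the spread between times left by the model, which may be technical, and counting error is unknown. Sign-flip tests over times are exact. The fits were tested on simulated data. Sums, ratios and figures used Python 3.11.15. Named genes were the members, up to 4 most abundant tested genes of a list, and the 8 most and 3 least alike to the globin sum; Klf1, the least abundant tested gene of its list, and genes under the testing limit were named for their role, with values seen. Members and lists were chosen with earlier results of these data known. Alternatives were other pseudocounts, filters, scalings and variance models, summed copies, no time factor and each time left out.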

Additional observations from a re-analysis of the deposited data

Results flagged for a closer look

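The ratio of Hba-a2 over Hba-a1 in chow at ZT 21, 0.511, lay far from the other 6 chow pools, the nearest of which had 0.327 and the lowest 0.262. Its gap to the nearest pool was 0.740 of the whole range, above Dixon's 95% critical value for 7 values. It was the 1 flag among 26 groups of 7 pools examined, and chance flags about 1 in 20 groups. The same chow pool had 128 FPKM of Hba-a1, 65.3 of Hba-a2, 54.0 of Hbb-bt and 2.74 of Alas2. That chow pool also had the highest FPKM sum of all pools, 435621, and the highest Kap level, 62960.5 FPKM. EpSA at ZT 21 had a ratio of 0.217. Both alpha copies summed to 65.6 FPKM in EpSA and 193 FPKM in chow at that time. The part that the assignment of shared reads plays in the ratio was not tested.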

How the results depend on the processing

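The diet difference of all 5 members kept its sign in all alternatives run, and for Hba-a1, Hba-a2, Hbb-bt and Alas2 its side of the threshold as well. Hbb-bs passed the threshold with genes of a mean of at least 5 FPKM (-0.43, limma adjusted p = 0.0429) and with quantile normalization (-0.34, adjusted p = 0.0491); over its alternatives the adjusted p ran between 0.0429 and 0.257. Leaving out a time gave -0.61 to -0.44 for Hba-a1, -1.0 to -0.63 for Hba-a2, -0.47 to -0.38 for Hbb-bs, -0.35 to -0.27 for Hbb-bt and -0.26 to -0.15 for Alas2. Counts over all genes moved more. Against 23 genes higher and 10 lower in EpSA, there were 0 and 0 with no filter, 1 and 1 with columns scaled to 1 total, 14 and 3 when centred on the median, 53 and 17 with quantile normalization, 96 and 60 with no time factor, and 1 and 2 without trend or robust variances, an alternative chosen after seeing the data; 25 were lower with a mean of at least 5. Without 1 time they were 0 to 6 higher and 0 to 5 lower. Rhythm was called for 6 genes in EpSA (0 with no filter, 0 to 5 without 1 time) and 13 in chow (8 with a pseudocount of 0.1, 0 with no filter, 7 with a mean of at least 5, 6 when centred, 8 with quantile normalization, 0 to 3 without 1 time). Apart from fewer pools and other genes tested, the cause was not tested. No rhythm of a member was called in any alternative. With 1 time left out, list medians of the diet difference ranged between -0.07 and -0.01 for haem synthesis and between -0.08 and -0.01 for iron handling. No paired analysis was possible because the columns are means per diet and time and carry no numbers that pair mice; the diets were compared within times by the time factor and the sign-flip tests. With means alone, depth and the spread between mice set an unknown limit.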
